A study of Drosophila melanogaster with 144 samples.

Results

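RNA from fly heads taken early in the subjective night was compared with RNA taken late in the same night, in the Drosophila melanogaster line Canton-S B. The subjective night is the stretch of constant darkness in which the flies' own clock keeps night time. The comparison used 36 of the 144 libraries of the study, namely every Canton-S B library from circadian time (CT) 14 to CT24. The early group held the 18 libraries of CT14, CT16 and CT18, and the late group the 18 libraries of CT20, CT22 and CT24. Each time had 6 libraries, 3 of females and 3 of males.

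All libraries came from adult virgin flies of the stock given as w1118; Canton-S B, which the labels describe as having a period of 24 h. Before freezing, the flies had been entrained for 3 days to 12 h of light and 12 h of darkness a day and held for 3 more days in constant darkness. Each library was poly(A)-selected RNA from a pool of 150 heads of 1 sex, with ERCC spike-in transcripts added. Whole heads mix eye, brain, fat body, muscle and blood cells, so a smaller number of cells of one type and less RNA per cell cannot be told apart. Entrainment used 2 incubators whose light schedules were reversed, and which of the circadian times came from which incubator is not stated. The collection was repeated 3 times, which gives the 3 replicate numbers.

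The fly clock is a feedback loop. The proteins of Clk and cyc form an activator that switches on per and tim, and the PER and TIM proteins later return to the nucleus and block that activator. The activator also drives vri, Pdp1 and cwo, of which vri represses Clk, Pdp1 activates it and cwo represses activator targets, while cry encodes the light receptor that leads TIM to degradation. In heads kept in cycles of light and darkness, per and tim RNA is known to be highest early in the night and to decline towards dawn, so a comparison within the night asks how much of that decline is present in these flies.

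The 36 libraries held 11.7 M to 37.3 M gene counts each (M is 1e6; median 15.9 M). Libraries were either shallow, at up to 16.8 M, or deep, at 28 M or more, and 9 of the deep ones were early and 6 late. The spike-in share was 0.15% to 0.869% early, with a median of 0.323%, and 0.238% to 0.891% late, with a median of 0.341%. The library labelled as male CT22 replicate 1 stood apart: 16 of 18 testis and accessory gland markers reached 1 count per 1e6 gene counts (CPM) in it, against at most 2 in the other 35 libraries. For gut markers the numbers were 11 of 21 against at most 2, and their summed level was 184.7 CPM against at most 14.7 CPM in the other late libraries and 11.95 CPM in the early ones. Ovary markers were not raised in it, with 1 of 18 at 1 CPM against 1 to 7 elsewhere. Results that this library touches are given with and without it.

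No gene passed the threshold between the early and the late night. With sex in the model, edgeR's quasi-likelihood test called 0 of 9894 genes (0%) at a Benjamini-Hochberg adjusted p of 0.05, and the smallest adjusted p was 0.534. At an unadjusted p under 0.05 there were 310 genes (3.13%), with 1.38% of all genes tested higher late and 1.75%, or 173 genes, lower late. DESeq2 also called 0 genes, with 333 at an unadjusted p under 0.05 and a smallest adjusted p of 0.0679. Without the library labelled as male CT22 replicate 1 the edgeR count stayed at 0, with 290 genes at an unadjusted p under 0.05 and a smallest adjusted p of 0.961.

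With the TMM scaling of the main fit, the intervals around the estimates were narrow for most genes. The SE of the log2 fold change had a median of 0.073 and quartiles of 0.053 and 0.108. For 9384 genes (94.8%) the 95% interval of the change lay within 1.5-fold in either direction, and for 9769 (98.7%) within 2-fold. The median log2 fold change over all genes was -0.0036. When libraries were scaled to the spike-ins, it was -0.0752 and the median SE was 0.194, so the counts of intervals hold for TMM scaling only. Estimates beyond 2-fold were made for 20 genes, 19 of them higher late, and 6 of the 20 stayed beyond 2-fold without the library labelled as male CT22 replicate 1. One of the 19 was betaTub85D, a tubulin of the testis, at 50.5 CPM in that library and at most 2.55 CPM in the other 35. Its log2 fold change was 1.21 (SE 0.48, adjusted p = 0.998, edgeR) with that library and 0.02 without it. The gene estimated beyond 2-fold lower was CycB, which encodes cyclin B, at 32.1 CPM in 1 female CT16 library and at most 2.98 CPM in the others.

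**Figure D1:**
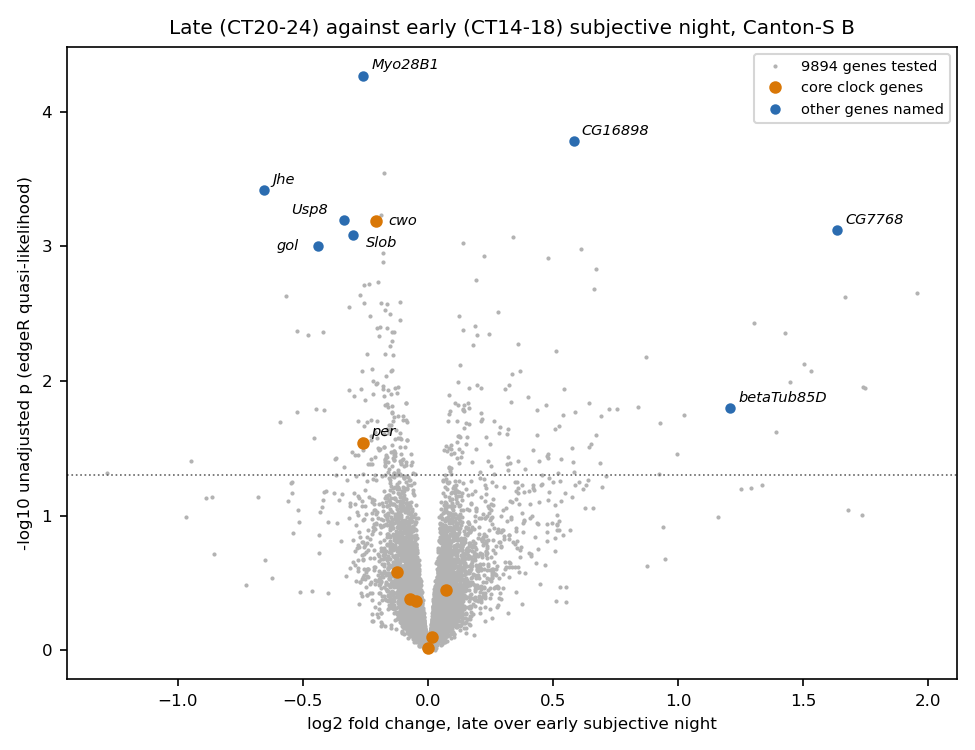
Log2 fold change of each of the 9894 genes tested, late over early subjective night (x axis), against the -log10 of its unadjusted p (y axis), with core clock genes in orange and other named genes in blue. The dotted line marks an unadjusted p of 0.05, which 310 genes passed, and no gene passed after adjustment.

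No core clock gene passed the threshold between early and late night. Of the 8, per and cwo had an unadjusted p under 0.05, both lower late, against 3.13% of all genes tested. The 8 comprised 3 with a positive and 5 with a negative estimate, against 4733 and 5161 of all genes tested. Their median log2 fold change was -0.06. The estimates lay between -0.26 and 0.07.

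The gene per (FBgn0003068, chromosome X, 2685580 to 2692780 on the plus strand), which encodes the repressor PERIOD, was at 51.97 to 148 CPM early, with a median of 119.7 CPM. Late it was at 61.8 to 173 CPM, with a median of 93.3 CPM. The early and late libraries overlapped over most of their range, and the highest late library was a male one at CT22. Mean levels were 99.8 CPM at CT14, 119.7 CPM at CT16, 124.1 CPM at CT18, 103.6 CPM at CT20, 96.9 CPM at CT22 and 85.4 CPM at CT24, with SDs of 15.9 to 39.5 CPM (n = 6 each). So the highest mean stood at CT18 and the lowest at CT24. The log2 fold change was -0.26 (SE 0.11, 95% interval -0.49 to -0.03), with an edgeR adjusted p of 0.998, and it was -0.12 without replicate 1 and -0.42 without replicate 2. Within 4 of the 6 series of one sex and one replicate number, the late mean was below the early mean.

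Its partner tim (FBgn0014396, chromosome 2L, 3493986 to 3508119 on the minus strand) was at 357 to 554 CPM early and 327 to 654 CPM late, with medians of 465 and 479 CPM. The early range lay inside the late one. Mean levels were 451 CPM at CT14, 490 CPM at CT22 and 432 CPM at CT24, and those between lay from 460 to 481 CPM. Neighbouring times differed by less than the larger of their SDs, which were 27.8 to 88.2 CPM (n = 6 each). Late over early, the log2 fold change was 0.01 (SE 0.06, 95% interval -0.10 to 0.13), and it was -0.05 when libraries were scaled to the spike-ins.

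The gene cwo (FBgn0259938, chromosome 3R, 10388258 to 10400752 on the plus strand), which encodes the repressor CLOCKWORK ORANGE, had the smallest p of the 8. It was at 77.7 to 118.5 CPM early, with a median of 97.3 CPM, and at 60.4 to 105.8 CPM late, with a median of 84.2 CPM. Early and late libraries overlapped, although all 3 female libraries of CT22 lay below every early library. Mean levels were 90.2, 104.2 and 94.5 CPM at the early times in order and 89.7, 75.7 and 84.9 CPM at the late ones, with SDs of 6.26 to 12.7 CPM (n = 6 each). This gave a log2 fold change of -0.21 (SE 0.06, 95% interval -0.32 to -0.09), with an edgeR adjusted p of 0.759, and 5 of 6 series were lower late. The estimates were nearly equal in females (-0.21, SE 0.08) and males (-0.21, SE 0.08).

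Of the other activator targets, vri (FBgn0016076, chromosome 2L) was at 109.5 to 244.5 CPM early and 120.6 to 228 CPM late. Its log2 fold change was -0.07 (SE 0.09), and its mean levels at the 6 times lay between 159.6 CPM at CT20 and 185.2 CPM at CT18. The level of Pdp1 (FBgn0016694, chromosome 3L) ran from 364 to 857 CPM early and from 370 to 712 CPM late. Its mean stood at 678 CPM (SD 188, n = 6) at CT16 and between 474 and 575 CPM at the other times. The log2 fold change of Pdp1 was -0.12 (SE 0.11) and had the opposite sign without CT16, at 0.02. The late range of Pdp1 lay inside the early one, and 4 of 18 early libraries lay above every late one.

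The activator genes and cry overlapped between early and late as well. For Clk (FBgn0023076, chromosome 3L) the range was 39.4 to 78.03 CPM early and 41.97 to 79.5 CPM late, and the log2 fold change was 0.07 (SE 0.08), or -0.02 on the spike-in scale. For cyc (FBgn0023094, chromosome 3L), which is known to be expressed without a rhythm, the range was 29.8 to 45.4 CPM early and 27.9 to 41.4 CPM late. Its log2 fold change was 0.00 (SE 0.05), or -0.05 on the spike-in scale. For cry (FBgn0025680, chromosome 3R) the range was 186 to 289 CPM early and 167 to 275 CPM late, and the log2 fold change was -0.05 (SE 0.06).

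**Figure D2:**
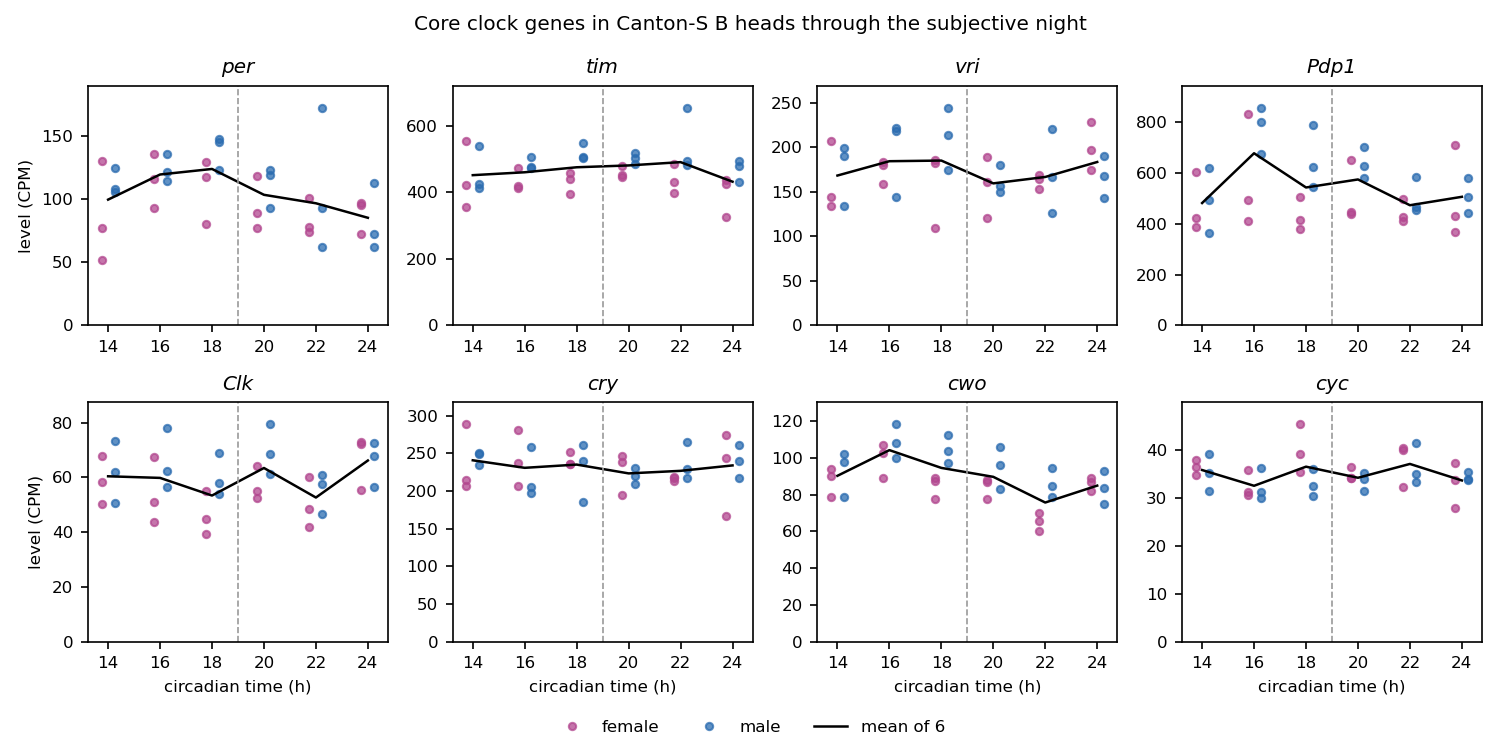
Level in CPM (y axis) of the 8 core clock genes in each of the 36 libraries by circadian time in hours (x axis), females in pink and males in blue, with the mean of 6 libraries as a line and the boundary between early and late dashed. The means of per are 124.1 CPM at CT18 and 85.4 CPM at CT24, those of tim lie between 432 and 490 CPM, and early and late libraries overlap in every panel.

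Further genes are named by a rule on the smallest p in each direction, and the others, apart from the members with the most counts in a list, were chosen after their values were seen. Beside cwo, the 12 smallest p included 3 genes that are related to the clock or its output in earlier work and were lower late: gol, Usp8 and Slob. None of the 4 passed the threshold, and each had an edgeR adjusted p of 0.759. With no filter on low counts, 7 of the genes tested here passed (Myo28B1, CG16898, CG13097, Jhe, dnr1, Usp8 and gol), with adjusted p from 0.0191 to 0.0475, and with no filter and without the library labelled as male CT22 replicate 1, 0 passed (edgeR; 701 had an unadjusted p under 0.05).

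The gene gol (FBgn0004919, chromosome 2R, 25072627 to 25084347 on the minus strand) encodes goliath, a RING-finger protein of the ubiquitin ligase type. It was at 115.1 to 342 CPM early, with a median of 268 CPM, and at 120.9 to 273 CPM late, with a median of 177 CPM. The low early values came at CT14, where the mean was 180 CPM (SD 45.2, n = 6). The mean stood at 292 CPM at CT16 and 287 CPM at CT18, then at 207 CPM at CT20, 201 CPM at CT22 and 152 CPM at CT24. All CT14 libraries lay within the late range or below it, and those of CT16 and CT18, from 213 CPM upward, overlapped only its upper part. The fitted log2 fold change was -0.44 (SE 0.12, 95% interval -0.69 to -0.19), lower late in 6 of 6 series, which held for 1.11% of all genes tested. Without CT14 it was -0.63, with an adjusted p of 0.0106.

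The gene Usp8 (FBgn0038862, chromosome 3R, 21134262 to 21138214 on the plus strand) encodes a deubiquitinating enzyme that acts on CLK. It was at 85.97 to 164 CPM early, with a median of 130.9 CPM, and at 71.7 to 160 CPM late, with a median of 103.4 CPM. Its mean was highest at CT18, at 145 CPM, and lowest at CT24, at 93 CPM. Between early and late, the log2 fold change was -0.34 (SE 0.09), lower late in 5 of 6 series. It passed the threshold without replicate 2, at -0.50 with an adjusted p of 0.0186.

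The gene Slob (FBgn0264087, chromosome 2L, 7642005 to 7675078 on the minus strand) encodes a protein that binds the Slowpoke potassium channel. It was at 499.6 to 1049 CPM early, with a median of 738 CPM, and at 452 to 842 CPM late, with a median of 606 CPM. Its mean was highest at CT16, at 851 CPM, and lowest at CT22, at 582 CPM. The log2 fold change was -0.30 (SE 0.08), lower late in 5 of 6 series, and without CT14 it was -0.38 with an adjusted p of 0.0497.

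The smallest p of all genes belonged to Myo28B1 (FBgn0040299, chromosome 2L, 7666047 to 7689459 on the plus strand), which encodes an unconventional myosin. Its span overlaps that of Slob on the other strand, although the 2 genes share no annotated exon base. It was at 26.5 to 41.8 CPM early, with a median of 36.6 CPM, and at 23.7 to 34.6 CPM late, with a median of 29.8 CPM. Mean levels were 33.6, 37.3 and 34.9 CPM at the early times and 30.4, 29.4 and 28.7 CPM at the late times, so every late mean lay below every early one. Late over early, the log2 fold change was -0.26 (SE 0.06, 95% interval -0.37 to -0.14), lower late in 6 of 6 series, with an unadjusted p of 5.4e-05 and an adjusted p of 0.534 (edgeR). With all 144 libraries in the fit the adjusted p of Myo28B1 was 0.00335, and Usp8 and gol then passed as well, at 0.00631 and 0.000518. Myo28B1 also passed without replicate 2 (adjusted p = 0.047) and without CT14 (0.0479). It did not pass with a term for runs of 24 library numbers (edgeR adjusted p = 0.297). Nor did it pass without the library labelled as male CT22 replicate 1 (edgeR adjusted p = 0.961), where its log2 fold change was -0.25 (SE 0.06).

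**Figure D3:**
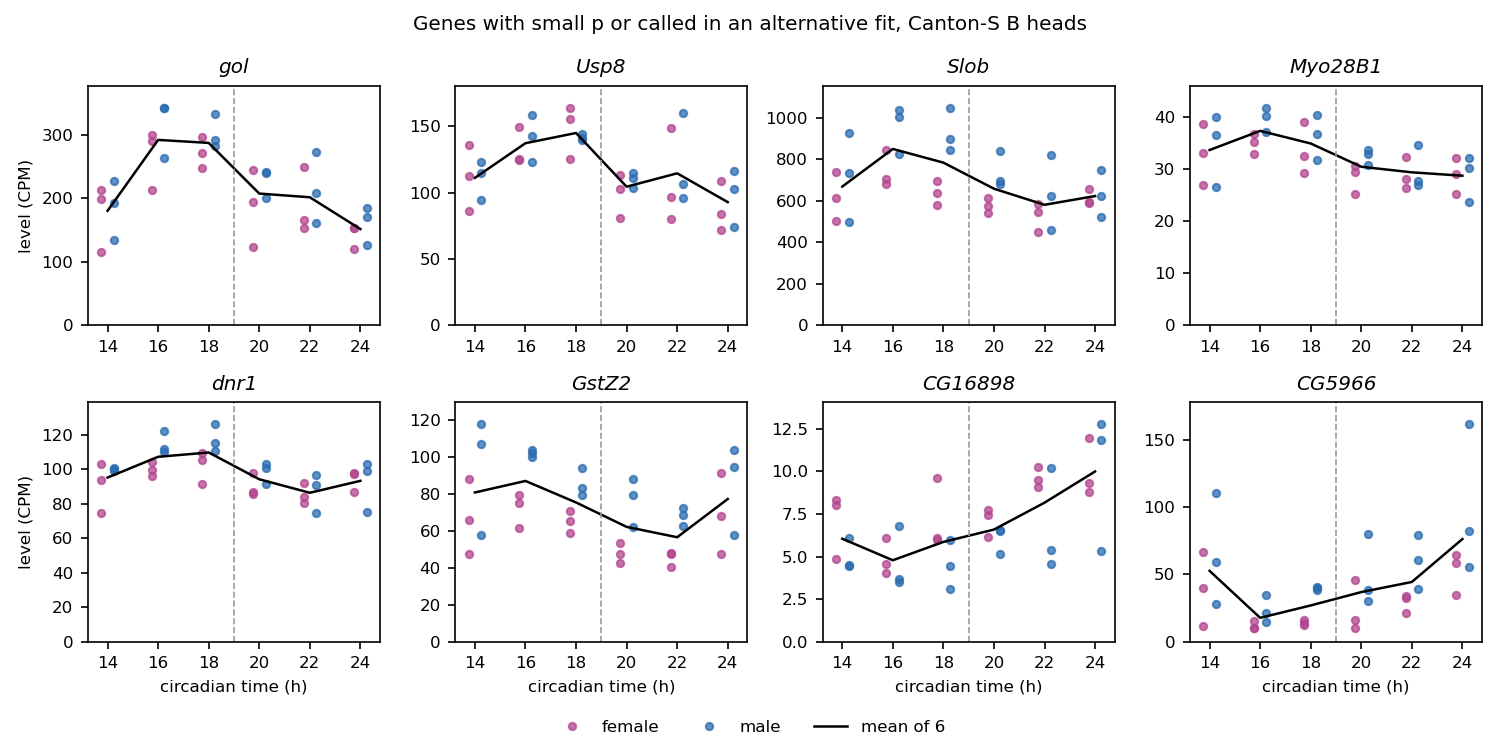
Level in CPM (y axis) of 8 genes with a small p or called under another setting, in each library by circadian time in hours (x axis), drawn as for the clock genes. The means of gol stand at 292 and 287 CPM at CT16 and CT18 and at 152 CPM at CT24, and every late mean of Myo28B1 lies below every early one.

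Other genes lower late were also among the 12 smallest p. The gene dnr1, which encodes a negative regulator of the Imd immune pathway, had a mean of 103.9 CPM early (SD 11.9, n = 18) and 91.2 CPM late (SD 8.88, n = 18). Its log2 fold change was -0.19 (SE 0.05), lower late in 6 of 6 series, and without CT14 it was -0.25 with an adjusted p of 0.0497. CG13097 had a log2 fold change of -0.18 (SE 0.04), also lower in 6 of 6 series. The juvenile hormone esterase gene Jhe was at 1.25 to 14.5 CPM early and 2.32 to 7.58 CPM late. For Jhe the log2 fold change was -0.65 (SE 0.17), and 5 early libraries, all of males at CT14 or CT16, lay above every late one.

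Genes with higher late estimates were fewer among the small p. CG16898 was at 3.08 to 9.59 CPM early, with a median of 5.43 CPM, and at 4.53 to 12.8 CPM late, with a median of 8.26 CPM. Its mean was 4.78 CPM at CT16 and 10.0 CPM at CT24, and its log2 fold change was 0.58 (SE 0.14), higher late in 6 of 6 series. That direction in all series held for 0.99% of all genes tested. Eaat2, a gene of the excitatory amino acid transporter family, had a mean of 624 CPM early (SD 56.3, n = 18) and 687 CPM late (SD 54.04, n = 18). Its log2 fold change was 0.14 (SE 0.04). The cuticle protein gene snsl had a log2 fold change of 0.34 (SE 0.09) at 2.37 CPM early and 3.01 CPM late. Its exons overlap those of the more abundant CG3036 on the other strand by 25 bases, and whether strand was used in counting is not given. Rgk2, which encodes a small GTPase of the RGK family, had a mean of 81.7 CPM early and 95.3 CPM late, a log2 fold change of 0.22 (SE 0.06), higher late in 6 of 6 series. The gene CG7768, among the 12 smallest p as well, stood at 14.5 CPM in the library labelled as male CT22 replicate 1 and at most 1.19 CPM in the other 35. Its log2 fold change was 1.63 (SE 0.45) with that library and 0.74 (SE 0.23) without it.

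A test that let each of the 6 times have its own level, again with sex in the model, called 18 of 10223 genes (0.176%; 938, or 9.18%, at an unadjusted p under 0.05). Of the 18 called, 15 had their highest level in the library labelled as male CT22 replicate 1, among them S-Lap7 at 72.2 CPM there and at most 1.8 CPM in the other 35. The other 3 were gol (adjusted p = 0.00419, edgeR), CG5966 (0.0235) and CG13185 (0.0339). Without that library the single call was gol, at an adjusted p of 0.023. The labels number the libraries, and depth follows runs of 24 consecutive numbers, although what a run stands for is not stated. With the runs as a term, 0 genes were called, 851 had an unadjusted p under 0.05 and the smallest adjusted p was 0.0836. With the replicate number as a block, 7 genes were called, gol and CG13185 among them but not CG5966.

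CG5966, which encodes a protein of the lipase family, had a CT14 level unlike that of the next early times. Its mean was 52.7 CPM at CT14 (SD 34.9, n = 6), 17.7 CPM at CT16 (SD 9.35), 26.9 CPM at CT18, 36.9 CPM at CT20, 44.4 CPM at CT22 and 76.4 CPM at CT24 (SD 44.8). The CT14 mean thus lay nearer to the late means than to the other early ones. Its log2 fold change from early to late was 0.69 (SE 0.28, adjusted p = 0.998, edgeR), higher late in 6 of 6 series, and without CT14 it was 1.29 with an adjusted p of 0.0479. GstZ2, a zeta-class glutathione transferase gene, had a late time unlike the others. Its mean was 80.8, 87.1 and 75.4 CPM at the early times and 62.2 and 56.5 CPM at CT20 and CT22, but 77.3 CPM at CT24. The log2 fold change of GstZ2 was -0.32 (SE 0.10, adjusted p = 0.867), and it was -0.47 without CT24 and -0.49 without replicate 2, with adjusted p of 0.0305 and 0.047. Without CT24, the cytochrome P450 gene Cyp4aa1 (-0.38) and CG13639 (0.81) passed too, each with an adjusted p of 0.0305. For both, the time left out was unlike the other late times. The means of Cyp4aa1 were 15.7 CPM at CT20, 16.7 CPM at CT22 and 20.5 CPM at CT24. Those of CG13639 were 1.67, 2.07 and 1.15 CPM, and it was low throughout, at a mean of 1.06 CPM early and 1.63 CPM late. About 15.8% of the exon bases of Cyp4aa1 are shared with Strn-Mlck on the other strand.

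Gene groups were described by counts, beside 1.38% higher and 1.75% lower at an unadjusted p under 0.05 and a median log2 fold change of -0.004 over all genes tested. For signs of any size, 5161 of the 9894 genes tested had a negative and 4733 a positive estimate. No member of any of the 38 lists passed the threshold. Of 29 clock regulators tested, 0 were higher and 3 lower at an unadjusted p under 0.05, namely Usp8, gol and tws, and 22 of the 29 had a negative estimate of any size. The median over the 29 was -0.045, with 0.01 in females and -0.093 in males. The gene tws, which encodes a regulatory subunit of the phosphatase PP2A, had a mean of 170 CPM early (SD 38.1, n = 18) and 151 CPM late (SD 21.3, n = 18). The regulators with the most counts were norpA, the phospholipase C gene of the eye, and the kinase gene CkIalpha. Their log2 fold changes were -0.10 (SE 0.11) and -0.07 (SE 0.08).

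Of 18 tested genes known from earlier work as rhythmic outputs in heads, 1 was higher and 6 lower at an unadjusted p under 0.05. The higher one was Cyp18a1, which encodes an enzyme that inactivates the moulting hormone ecdysone, with a log2 fold change of 0.23 (SE 0.10). Beside Usp8, Slob and gol, the lower ones were Gclm, Ugt35B1 and CG10513. The glutathione synthesis gene Gclm had a log2 fold change of -0.17 (SE 0.05), lower late in 6 of 6 series. The glycosyltransferase gene Ugt35B1 had one of -0.23 (SE 0.10), and CG10513 one of -0.22 (SE 0.08). The median over the 18 was -0.089. Usp8 and gol stand in both of these lists, which were drawn up with results of these samples known, so that their counts are not independent evidence of a direction.

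Of 18 ribosome biogenesis genes tested, 0 were higher and 4 lower at an unadjusted p under 0.05, and 16 had a negative estimate. The 4 were CG12325 (-0.18, SE 0.05), Nop60B (-0.16, SE 0.06), nop5 (-0.16, SE 0.06) and Nnp-1 (-0.08, SE 0.04), each on the log2 scale. Nop60B encodes a pseudouridine synthase of ribosomal RNA and nop5 a protein of the particles that methylate it. The level of Nop60B ran from 16.2 to 52.3 CPM early and from 17.3 to 55.7 CPM late, with higher levels in females than in males. In females it was at 42.7 to 52.3 CPM early and 32.5 to 55.7 CPM late, and 6 of 9 late libraries lay below every early one. In males it was at 16.2 to 25.98 CPM early and 17.3 to 24.9 CPM late. The 78 ribosomal protein genes tested held 0 higher and 1 lower, with a median of -0.038.

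Genes of fat and feeding are given beside 3.13% of all genes tested at an unadjusted p under 0.05. Of 19 genes of fat synthesis and storage tested, 0 were higher and 2 lower at an unadjusted p under 0.05, with estimates from -0.22 to 0.60 over the list. They were Lsd-1, which encodes the lipid droplet protein perilipin 1 (-0.22, SE 0.08), and bgm, an acyl-CoA synthetase gene (-0.16, SE 0.08). Lsd-1 was at 226 to 534 CPM early and 178 to 530 CPM late, and 7.35% of its exon bases are shared with CG10214 on the other strand. Of 17 fasting and FOXO-related genes tested, 1 was lower, namely srl, which encodes the fly homologue of PGC-1 (-0.20, SE 0.09). Of 13 genes of sugar digestion and transport tested, 1 was higher and 0 lower, namely the maltase gene Mal-A1 (0.58, SE 0.28), which had a negative estimate without the library labelled as male CT22 replicate 1 (-0.03) and was at 141.4 CPM in it. The translation repressor gene Thor had a log2 fold change of -0.14 (SE 0.09). Of 10 activity-induced genes tested, puc was lower at an unadjusted p under 0.05 (-0.17, SE 0.08), and 9 had a negative estimate, kay among them (-0.08, SE 0.08), which had a positive one without CT22 (0.02). The median over the 10 was -0.062, with -0.006 in females and -0.131 in males.

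Stress and immune genes had a wide spread between libraries of the same group. All 5 Turandot genes tested had a positive estimate, with a median of 0.237, and 0 had an unadjusted p under 0.05. Their median was -0.088 in females and 0.438 in males. TotA, a secreted stress peptide gene, was at 515 to 4921 CPM early and 359 to 11688 CPM late. Of 13 heat shock genes tested, 12 had a negative estimate, with a median of -0.169, and 0 had an unadjusted p under 0.05. The median over the 13 was -0.263 in females and -0.035 in males. Hsp83, which encodes the fly Hsp90, was at 746 to 3799 CPM early and 846 to 2979 CPM late, with medians of 1002 and 1023 CPM. Its log2 fold change was -0.17 (SE 0.21), or 0.07 without replicate 2. Of 25 antimicrobial peptide and receptor genes tested, only AttD had an unadjusted p under 0.05, at -0.95 (SE 0.44), and it had the opposite sign among the deep libraries, at 0.85.

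Genes of the eye and of neurons had medians close to 0. Of 33 phototransduction genes tested, 1 was higher and 0 lower at an unadjusted p under 0.05, with a median of 0.002. The one was ninaG, which encodes an enzyme of visual pigment synthesis, at 0.13 (SE 0.06). The rhodopsin gene ninaE was at 41580 to 66312 CPM early and 40942 to 65610 CPM late, a log2 fold change of 0.00 (SE 0.07). The arrestin gene Arr1 had one of 0.12 (SE 0.06), and the channel gene trpl one of -0.10 (SE 0.05). Of 29 neuropeptide and receptor genes tested, 0 had an unadjusted p under 0.05. Pdf, the neuropeptide of the clock neurons, was at 26.8 to 77.3 CPM early and 32.1 to 83.6 CPM late, a log2 fold change of -0.02 (SE 0.09). The 14 neuronal and 11 glial markers tested held 0 at an unadjusted p under 0.05, with medians of -0.024 and 0.005. The photoreceptor gene ninaE was at 40942 CPM or more in each of the 36 libraries, which were labelled as heads.

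Cytochrome P450 genes with a small p went both ways, and the glutathione transferase genes with a small p were all lower late. Among all genes tested, 1.38% were higher and 1.75% lower at an unadjusted p under 0.05. Of 70 cytochrome P450 genes tested, 4 were higher and 4 lower at an unadjusted p under 0.05, with a median of 0.005. Cyp4ac3 had a log2 fold change of 0.28 (SE 0.09), and Cyp4aa1 one of -0.26 (SE 0.08). Of 31 glutathione transferase genes tested, 0 were higher and 2 lower, and of 22 UDP-glycosyltransferase genes 1 was higher and 1 lower. The lower one was Ugt35B1, which was also counted among the rhythmic outputs. Fat body markers, of which 15 were tested, had a median of -0.134 (-0.24 in females and 0.071 in males), with 0 higher and 2 lower. Among the 2 was Lsd-1, which was also counted in the list of fat synthesis and storage. The summed level of the fat body markers ran from 5121 to 130252 CPM early and from 5738 to 101551 CPM late, and its part in the fat gene estimates was not tested.

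**Figure D4:**
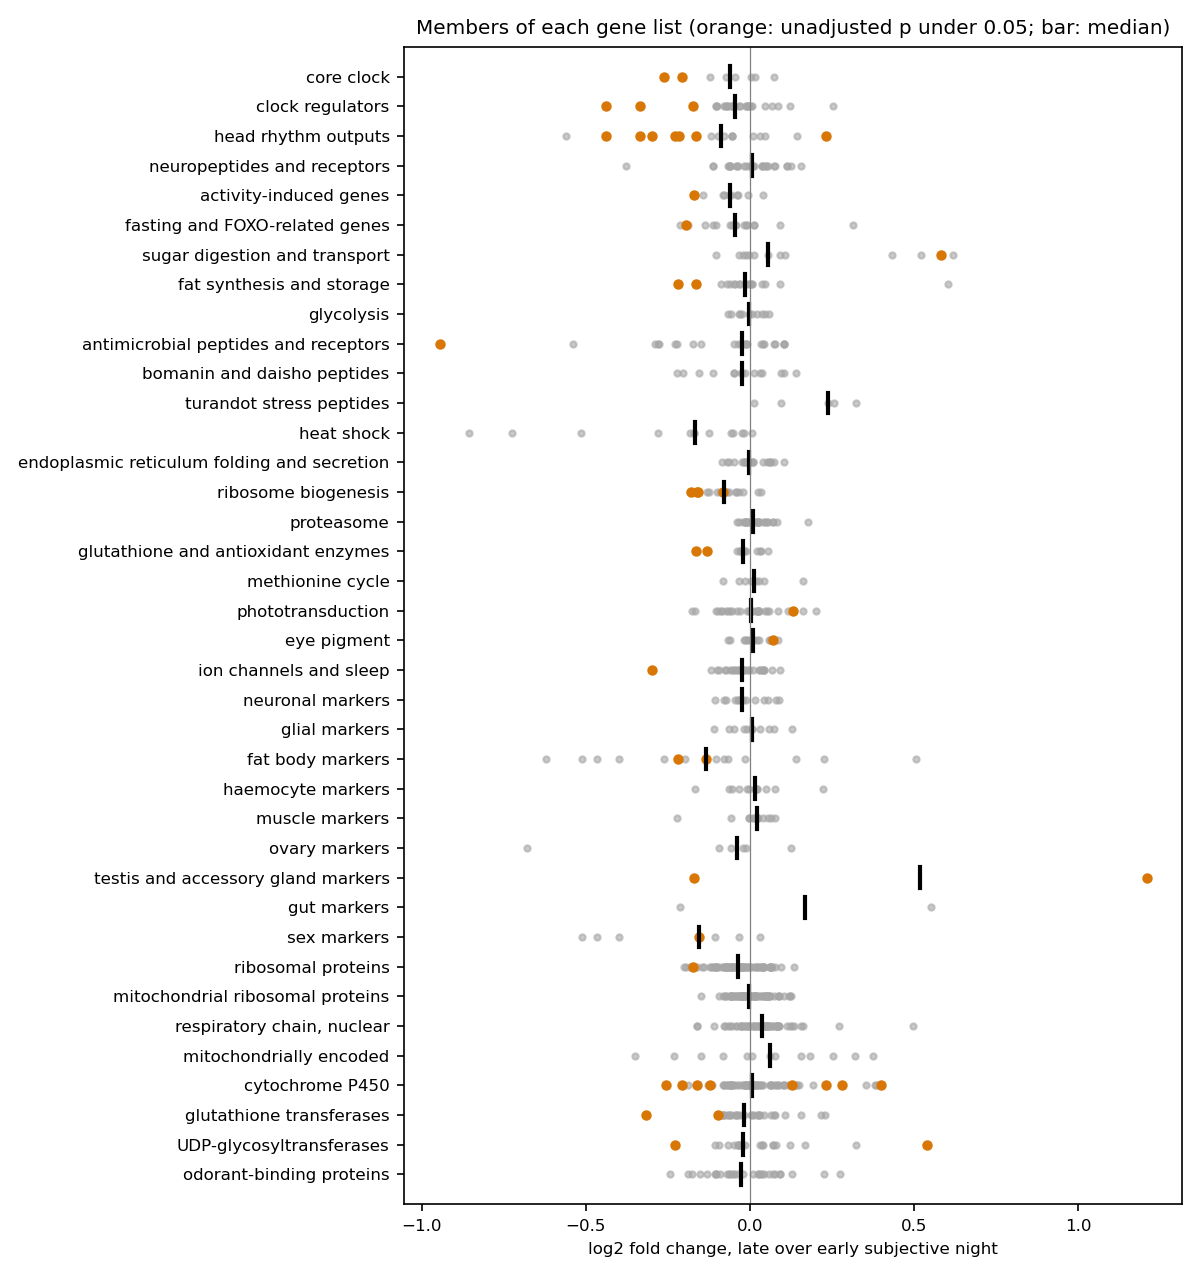
Log2 fold change, late over early subjective night (x axis), of every tested member of 38 gene lists (rows), with members at an unadjusted p under 0.05 in orange and the median of each list as a bar. Most medians lie near 0, those of the 5 Turandot genes (0.237) and the 13 heat shock genes (-0.169) lie further out, and those of the testis and gut lists rest on 2 tested genes each.

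The sexes were also taken apart. Within females 0 of 9894 genes were called (0%; 376, or 3.8%, at an unadjusted p under 0.05), and within males 0 (0%; 934, or 9.44%, likewise). Without the library labelled as male CT22 replicate 1, the numbers at an unadjusted p under 0.05 were 417 and 442. The difference between the sexes passed the threshold for 0 genes (0%), by edgeR with 1019 (10.3%) at an unadjusted p under 0.05 and by DESeq2 with 1053. Without the library labelled as male CT22 replicate 1 the edgeR counts for that difference were 0 and 635. For per the log2 fold change was -0.21 (SE 0.16) in females and -0.31 (SE 0.16) in males. For gol it was -0.46 (SE 0.18) and -0.41 (SE 0.18), and for Usp8 it was -0.41 (SE 0.13) and -0.26 (SE 0.13). The largest gap among the core clock genes was that of vri, at 0.07 (SE 0.12) in females and -0.21 (SE 0.12) in males, with an unadjusted p of 0.11 for the difference.

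The same contrast was set beside that of DGRP_892, a Drosophila Genetic Reference Panel line of long period, in its own 36 libraries of CT14 to CT24. The times are those of the labels in both lines. Whether they mark the same phase of each line's own clock after 3 days in constant darkness was not tested. There 2 of 10175 genes were called (0.0197%), Jon99Ciii and lncRNA:CR45517, both higher late, and 2654 had an unadjusted p under 0.05 (26.1%). With the runs of library numbers as a term, the counts were 0 and 344, and with the replicate number as a block they were 0 and 2667. The difference between the lines passed the threshold for 0 of 10175 genes (0%), with 1805 (17.7%) at an unadjusted p under 0.05 by edgeR, 1885 by DESeq2, and 209 with the runs as a term. Without the library labelled as male CT22 replicate 1 the edgeR counts for that difference were 0 and 1409. For Clk the log2 fold change was 0.07 (SE 0.08) in Canton-S B and 0.28 (SE 0.07) in DGRP_892, with an adjusted p of 0.267 for the difference. For Pdp1 it was -0.12 (SE 0.11) and 0.25 (SE 0.11), and for cwo -0.21 (SE 0.06) and 0.06 (SE 0.06), each with an adjusted p of 0.258 for the difference. Usp8 had nearly the same value in both lines, -0.34 (SE 0.09) and -0.34 (SE 0.07). Slob stood at -0.30 (SE 0.08) in Canton-S B and -0.04 (SE 0.07) in DGRP_892, with an adjusted p of 0.258.

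Within the subjective day of Canton-S B, CT8 to CT12 against CT2 to CT6, 0 of 10061 genes were called (0%; 1873, or 18.6%, at an unadjusted p under 0.05). The night contrast minus the day contrast passed for 0 genes (0%; 784, or 7.79%, at an unadjusted p under 0.05), and its smallest adjusted p was 0.186. Among genes with lower late estimates in the night, the day estimates were 0.01 (SE 0.10) for gol, 0.05 (SE 0.08) for Usp8, -0.03 (SE 0.05) for Myo28B1 and 0.01 (SE 0.05) for dnr1, and 0.16 (SE 0.09) for GstZ2 and 0.20 (SE 0.22) for Jhe, each on the log2 scale. For Slob and CG13097 they were -0.07 (SE 0.08) and -0.06 (SE 0.04). All of these genes were named for their night values, so day estimates nearer 0 can come from that choice alone. The smallest p for the difference between night and day belonged to Ugt35B1, at -0.23 (SE 0.10) in the night and 0.45 (SE 0.11) in the day. For per the day estimate was -0.14 (SE 0.10), for cwo -0.13 (SE 0.06) and for cry 0.13 (SE 0.07).

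**Figure D5:**
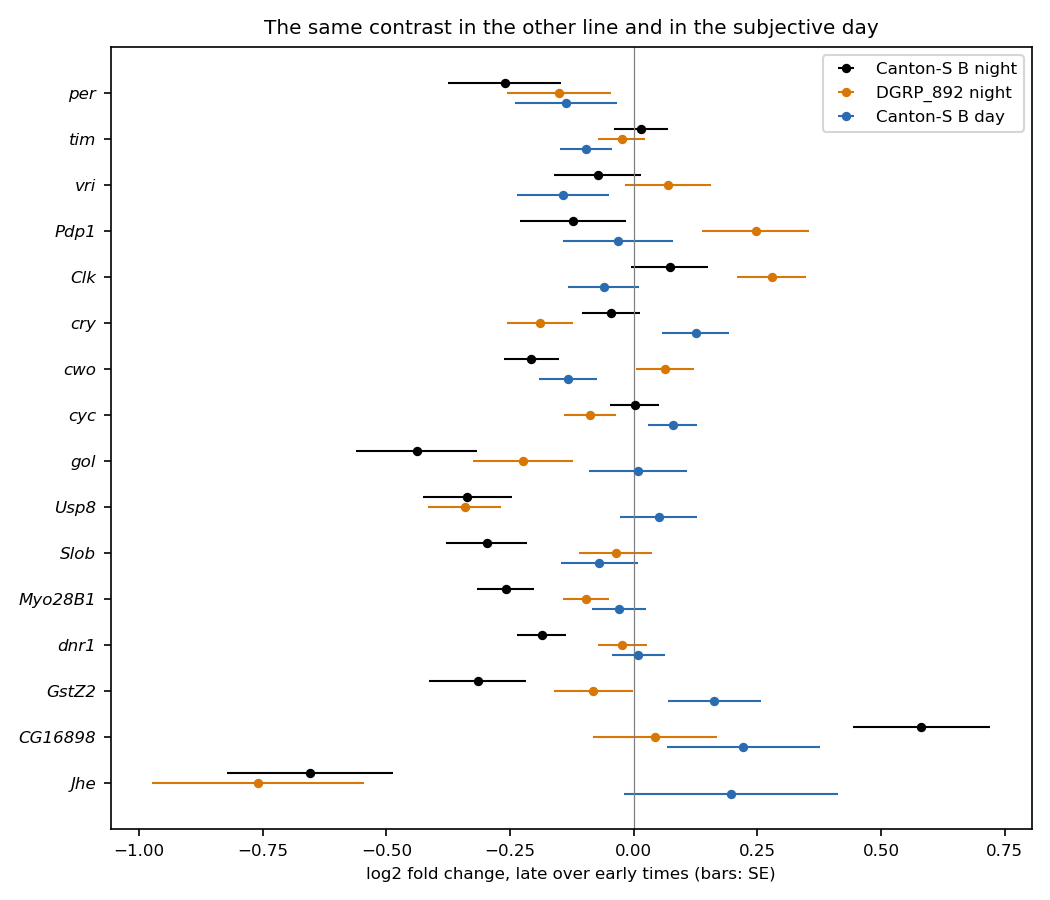
Log2 fold change (x axis; bars are SE) of 16 genes, late over early times, in the Canton-S B night (black), the DGRP_892 night (orange) and the Canton-S B day (blue). Usp8 stands at -0.34 at the labelled night times of both lines and 0.05 in the day, and no difference between the contrasts passed the threshold. Genes other than the core clock genes were named for their values in the Canton-S B night.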

How the data were processed

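Tools named in the submitters' processing notes are featureCounts 1.5.2, STAR 2.5.3a and FastQC 0.11.5. Per the labels, mapping was to FlyBase release 6 plus spike-in sequences, followed by counting at gene level. The batch method and whether counting used strand are not given in the sources used here, and read lengths differ between the label texts. The deposited table holds the authors' raw counts for 17381 genes and 92 ERCC transcripts. A second deposited table, used only as an alternative, gives the authors' values after TMM normalization and batch correction, treated as a score because some lie below 0. Values below 0 were set to 0, and it was tested by limma-trend (limma 3.58.1) on log2(value + 20), which understates changes of low genes.

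Spike-in rows entered neither library sizes nor tests. filterByExpr on the 4 groups of sex and early or late night (count of at least 10, total of at least 15) kept 9894 genes holding 99.94% of gene counts. edgeR 4.0.16 in R 4.3.3 fitted sex and early or late night to the counts of the 36 libraries with TMM scaling and robust quasi-likelihood dispersions, and p-values were adjusted over all genes tested with a threshold of 0.05. The spread between times within early or late night counts as error. The sex, line and day-night differences were interaction terms of fits on 36, 72 and 72 libraries. CPM are per 1e6 on effective library sizes, intervals cover 95%, and series means used log2 CPM with a prior count of 2. Alternatives were other scalings, no filter, DESeq2 1.42.0, other fits, left-out libraries, replicates and times, and a term for runs of 24 library numbers. The script was tested on simulated data. Figures used matplotlib 3.10.9 in Python 3.11.15.

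Symbols and coordinates come from Ensembl release 115 on FlyBase release 6, which named 17239 of the genes, and coordinates are gene spans. Antisense, overlapping and near-identical genes such as the Hsp70 copies are uncertain. Replicates are separate collections per the labels, so a number is shared by libraries of 1 collection. Deviations from the group means of same-numbered libraries had median correlations of -0.003, 0.198 and 0.171 for numbers 1 to 3, and 27 of 36 libraries correlated best with their own number. The main fit had no block, and the block was an alternative. The 36 pairs of same-group libraries differed by 14.8 to 186 times the sampling noise. The comparison and gene lists were chosen with earlier results of these data known. By rule, the text names the core clock genes, the 6 smallest p in each direction and up to 2 members of a list with the most counts, and the other names were chosen after their values were seen.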

Additional observations from a re-analysis of the deposited data

How the results depend on the processing

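The count of 0 genes between early and late night was also 0 with RLE size factors, the spike-in scale (41 genes at an unadjusted p under 0.05), DESeq2, 12 group means, the deep or the shallow libraries, the authors' deposited table, and the term for runs of 24 library numbers. It was 190 with no filter on low counts, 184 of them higher late and 182 highest in the library labelled as male CT22 replicate 1, and 0 with no filter and without that library. It was 3 with all 144 libraries, 5 without CT14, 3 without CT24, and 0 without any other time. Leaving out 1 replicate number gave 0 to 3 genes, the 3 (GstZ2, Myo28B1 and Usp8) without replicate 2. Late-minus-early effects from the 72 night libraries of both lines gave 6 genes, and 1, Myo28B1, without the library labelled as male CT22 replicate 1. These last fits, the unfiltered fit without that library and the alternatives of the test over 6 times (18 genes, 1 without the library, 0 with the runs) were chosen after seeing the data. DGRP_892 went from 2 genes to 0 with the runs. The differences between sexes and between lines stayed at 0 under each alternative run.

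With the replicate number as a block, 0 genes were called between early and late night and 318 had an unadjusted p under 0.05. The paired fit, added for these after seeing the data, gave 7 genes over the 6 times and 0 for DGRP_892. The block changed no call within either sex, in the day, or between sexes, lines, or night and day.

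Of 1188 gene values under alternatives, 26 changed sign by more than the SE or with a call, and the cause was not tested. The spike-in scale gave -0.0547 for tim, -0.0206 for Clk and -0.0505 for cyc. The runs gave 7e-04 for Pdp1 and 0.0309 for CkIalpha. The shallow libraries gave -0.0474 for tim, 0.0384 for Pdp1, 0.0457 for norpA, 0.0538 for CkIalpha and 0.4218 for CycB. Without CT16 the values were 0.0235 for Pdp1, 0.0103 for norpA, 0.0331 for CkIalpha and 0.289 for CycB, and without CT22 0.0187 for kay. AttD stood at 0.8459 in the deep libraries, and CycB at 0.2409 with DESeq2. The authors' deposited table gave -0.0048 for TotA and -0.1864 for betaTub85D. Mal-A1 stood at -0.0235 with DESeq2, -0.071 without CT22, -0.4992 in the authors' deposited table, and -0.0251 without the library labelled as male CT22 replicate 1 (-0.0304 with no filter as well), against up to 0.7979 without a replicate number. Leaving out 1 replicate number gave -0.2762 to 0.0688 for Hsp83 and -1.7145 to 0.2778 for CycB.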
